A study of Mus musculus with 6 samples.

Results

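The interferon regulatory factors (IRFs) are a family of transcription factors, and 8 of its members, Irf1, Irf2, Irf3, Irf4, Irf5, Irf7, Irf8 and Irf9, were followed through RNA sequencing that the study describes as that of tumor-associated macrophages (TAMs). They were chosen by gene symbol, and all 8 were found among the 22377 genes of the count table and among the 13884 that passed the filter on low counts. The study compared mice with one or both working copies of Npm1, the gene of the nucleolar protein nucleophosmin. By estimate, Irf1 and Irf4 were higher and the other 6 members lower in the libraries labelled ko, and no single difference passed the test across all genes.

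All IRFs share an N-terminal DNA-binding domain with a cluster of tryptophans that reads GAAA repeats. IRF3, IRF5 and IRF7 are activated by phosphorylation downstream of pattern recognition receptors and switch on interferon genes. IRF9 is the DNA-binding subunit of ISGF3, the factor that carries the type I interferon signal, and IRF1 carries much of the interferon-gamma signal, which IRF2 opposes at many of the same sites. IRF4 and IRF8 bind DNA mainly with partners such as PU.1 and steer the development and polarization of macrophages and dendritic cells, IRF4 being linked to the M2-type and IRF5 to the M1-type state.

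The 6 libraries fall into 3 labelled wt and 3 labelled ko, the latter also called knockdown. According to the methods of the study, macrophages (CD45+ CD11b+ F4/80+) were sorted from subcutaneous tumors of LLC, the Lewis lung carcinoma line, in Npm1+/+ and Npm1+/- mice of both sexes that were injected when 6 to 8 weeks old, and tumors were collected 2 weeks later. Npm1+/- mice lack one allele in every cell type, not in macrophages alone, and a heterozygous mouse is neither a knockout nor a knockdown. The labels give no genotype, no age and no sex per library and name tumor tissue, TRIzol and a small RNA protocol in place of sorted cells, the RNeasy kit and the SMARTer kit. These accounts were not reconciled, so the groups are called wt and labelled ko. The replicates are separate biological samples by their labels, but a heatmap of these data in the study names fewer individual mice than there are libraries per group. The p-values measure only the spread between these libraries, which may in part be technical.

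The total count per library ranged from 36550775 to 38147320, and the 8 members had between 957 and 18719 counts in each library, so counting error was small beside the spread between libraries. Levels are given as CPM, in which counts are set relative to the library total after scaling by the TMM method, which corrects for a few abundant genes. Npm1 itself was not lower in the libraries labelled ko (441, 499 and 343 CPM in replicates 1, 2 and 3) than in the wt libraries (142, 380.2 and 381), so the directions below are those between labels. On the first principal component, which held 68.0% of the variance, wt replicate 1 stood at -108 and the other 5 libraries between -4.54 and 52.0. The macrophage markers Itgam (1492 to 2975 CPM), Csf1r (547 to 1612) and Adgre1 (127 to 302) were high in every library, and the epithelial markers Epcam and Krt19 were at most 0.72 CPM, while Krt8 ranged from 9.90 to 171.

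Short stretches of the promoters of Irf1, Irf2 and Irf8 are shown because they hold letters of STAT sites and, in Irf2 alone, of GAAA repeats. Through such elements IRF genes can respond to interferons and to each other. The 300-base windows from 250 bases before to 50 after each RefSeq start (GRCm38.p6, 11 windows for the 8 members) were searched on both strands for GAAA followed after any 2 bases by GAAA (the core of the interferon-stimulated response element, ISRE), for TTC followed after any 3 bases by GAA (the gamma-activated sequence, GAS) and for GGAA followed after any 2 bases by GAAA (the composite element bound by PU.1 with IRF4 or IRF8). The ISRE letters were found in 1 of the 11 windows, that of Irf2, against 3.44% of all 32851 promoter windows. The GAS letters were found in 3 of the 11 windows, 1 each of Irf1, Irf2 and Irf8, against 8.30% of all windows. The PU.1-IRF letters were found in 1 of the 11 windows, that of Irf2, against 2.72%. Each line gives 30 bases of the plus strand, 5′ to 3′, with the match in capitals.
Irf1 GAS, chr11:53769914-53769943: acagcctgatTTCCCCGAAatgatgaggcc
Irf2 ISRE, chr8:46739495-46739524: tggggaagtGAAAATGAAAttgacttttcc
Irf2 PU.1-IRF element, chr8:46739495-46739524: tggGGAAGTGAAAatgaaattgacttttcc
Irf2 GAS, chr8:46739511-46739540: aaattgacttTTCCGAGAAatgatgaaagc
Irf8 GAS, upstream, chr8:120736177-120736206: caaaagtgatTTCTCGGAAagagagcgctt
Irf8 GAS, downstream, chr8:120736195-120736224: aagagagcgcTTCAGAGAAggcggatttgg
Counted from the start of transcription, the match in Irf1 begins at base -90. In Irf2 the ISRE and the PU.1-IRF letters overlap each other, beginning at bases -241 and -247, and the GAS letters begin at base -224. The matches in Irf8 begin at bases -171 and -153. These matches describe the sequence and were not measured as binding sites.

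Irf1 and Irf2, the activator and the repressor that compete for the same sites, stood on opposite sides. Irf1 (NCBI Gene 16362, chromosome 11 of GRCm38 from 53770014 to 53778374, plus strand) had 300.1, 286 and 226 CPM in wt replicates 1, 2 and 3 and 394, 412 and 375 in the libraries labelled ko. Each library labelled ko lay above each wt library, and the lowest of them was 375 against 300.1 for the highest wt library. The wt libraries averaged 271 ± 39.3 CPM (SD, n = 3) and the libraries labelled ko 394 ± 18.8 (SD, n = 3), a log2 fold change of 0.54 (standard error 0.14) or 1.45-fold. In the quasi-likelihood test of edgeR the p-value, adjusted by the Benjamini-Hochberg method over the whole table, was 0.328.

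Irf2 (NCBI Gene 16363, chromosome 8 from 46739732 to 46847458, plus strand) had 95.9, 93.0 and 78.9 CPM in the wt libraries and 57.0, 42.7 and 77.1 in replicates 1, 2 and 3 labelled ko. The groups did not overlap, but replicate 3 labelled ko was close to wt replicate 3. The averages were 89.3 ± 9.05 CPM (SD, n = 3) for wt and 58.9 ± 17.2 (SD, n = 3) for the libraries labelled ko, with a log2 fold change of -0.60 (standard error 0.21, adjusted p = 0.328 in edgeR). The ratio of Irf2 to Irf1 removes the scaling between libraries, because both values come from the same library. Taken as FPKM, the authors' values per gene length and library total, it was 0.0857, 0.0871 and 0.0937 in the wt libraries and 0.0388, 0.0278 and 0.0552 in the libraries labelled ko. The ratio was thus 2.27-fold lower in the libraries labelled ko, with no overlap (difference of log2 ratios -1.18). Since both genes lay apart in opposite directions by CPM, the lack of overlap and the larger difference follow by arithmetic. A two-sided exact permutation test gave p = 0.1, which is as low as 3 against 3 libraries can go. For the same reason this p adds nothing to the values of the single genes. The spread of the log2 ratio was 0.0682 (SD, n = 3) among the wt libraries and 0.494 (SD, n = 3) among the libraries labelled ko.

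**Figure D1:**
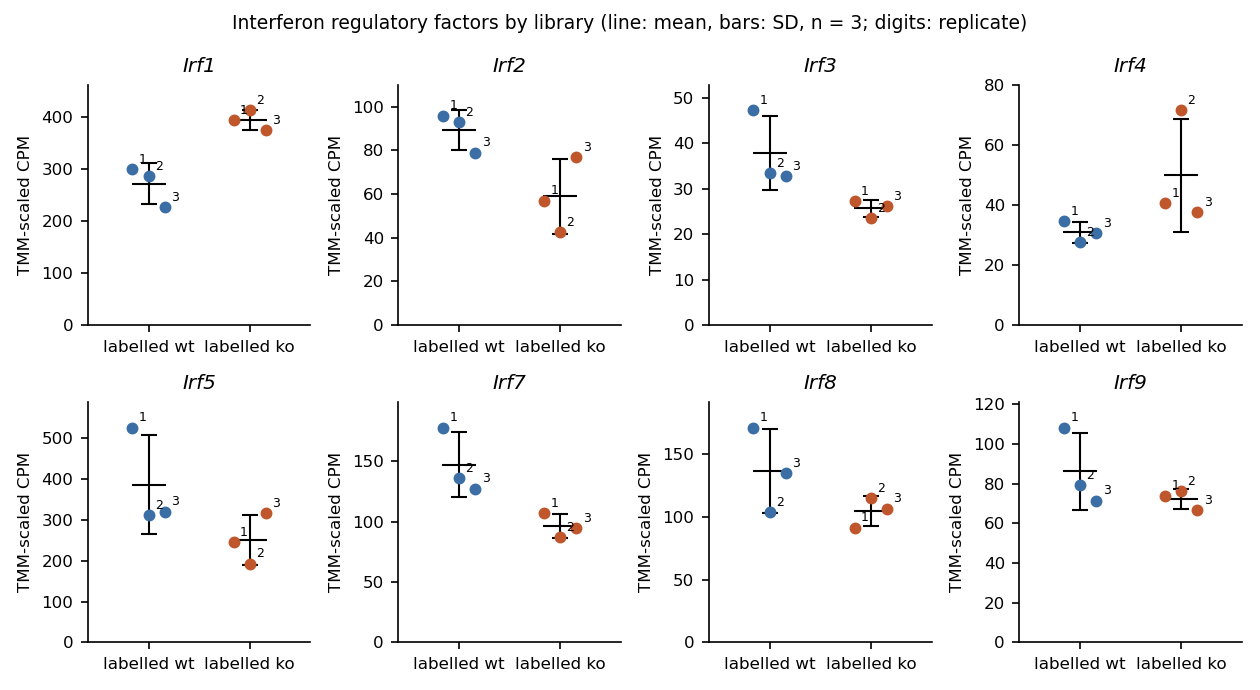
Level of each of the 8 IRF genes in each library, as TMM-scaled CPM on a linear axis from 0, with the mean and SD of 3 libraries per group and the replicate number beside each point. Irf1 and Irf4 are higher in each library labelled ko than in each wt library, Irf2, Irf3 and Irf7 are lower, and the groups overlap for Irf5, Irf8 and Irf9.

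Irf3 and Irf7, the factors that switch on interferon-beta and interferon-alpha genes, were both lower in the libraries labelled ko. Irf3, made constitutively in most cells (NCBI Gene 54131, chromosome 7 from 44997648 to 45002848, plus strand), had 47.3, 33.5 and 32.8 CPM in the wt libraries and 27.3, 23.5 and 26.2 in the libraries labelled ko. Every library labelled ko was below every wt library, and wt replicate 1 was the highest. Its estimate was a log2 fold change of -0.56 (standard error 0.18, adjusted p = 0.328 in edgeR), and without wt replicate 1 it was -0.37 with a standard error of 0.13. Irf7, itself induced by interferon (NCBI Gene 54123, chromosome 7 from 141262706 to 141266481, minus strand), had 178, 136 and 127 CPM in the wt libraries and 107, 86.9 and 94.6 in the libraries labelled ko. Again the groups did not overlap, with a log2 fold change of -0.61 (standard error 0.16, adjusted p = 0.328 in edgeR).

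The ratio of Irf7 to Irf3 was the steadiest of the 4 ratios examined. In FPKM it was 4.93, 5.32 and 5.08 in the wt libraries and 5.12, 4.83 and 4.73 in the libraries labelled ko, so that the ranges overlapped. The difference of the log2 ratios was -0.062, against SDs of 0.0558 and 0.0591 within the groups (exact permutation test, two-sided p = 0.3). Irf3 and Irf7 were the most alike of the 28 pairs of members, by a measure that restates how steady their ratio was over the 6 libraries. The root mean square difference of their log2 CPM, after each gene was centred on its own mean over the 6 libraries, was 0.0564, and the next pair, Irf3 and Irf5, came to 0.187.

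Irf4, Irf5 and Irf8 are the members with the strongest ties to myeloid cells. Irf4 (NCBI Gene 16364, chromosome 13 from 30749226 to 30766976, plus strand) had 34.6, 27.5 and 30.6 CPM in the wt libraries and 40.6, 71.6 and 37.6 in the libraries labelled ko. Replicate 2 labelled ko was far above the others, yet replicates 1 and 3 also exceeded each wt library. This gave a log2 fold change of 0.69 (standard error 0.25, adjusted p = 0.328 in edgeR), or 1.62-fold, and without replicate 2 labelled ko it was 0.33. Because lymphocytes express Irf4 too, their markers are given beside it. All 9 T cell markers tested had higher estimates in the libraries labelled ko, and their summed level was 26.3, 43.5 and 132 CPM in the wt libraries and 119, 304 and 103 in the libraries labelled ko. The summed T cell level was highest in replicate 2 labelled ko, as Irf4 was, whereas wt replicate 3 had more of it than replicates 1 and 3 labelled ko and less Irf4. The 10 B and plasma cell markers summed to between 582 and 723 CPM in the wt libraries and between 500.1 and 555 in the libraries labelled ko, nearly all of it from Xbp1 and Sdc1. By estimate, 6 of these 10 markers were higher and 4 lower in the libraries labelled ko (median log2 fold change 0.09). The part of lymphocyte RNA in the level of Irf4 was not tested further.

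Irf5 (NCBI Gene 27056, chromosome 6 from 29526625 to 29541871, plus strand) had 526, 313 and 320.2 CPM in the wt libraries and 246, 193 and 316 in the libraries labelled ko. Replicate 3 labelled ko lay between wt replicates 2 and 3, so the groups overlapped. The estimate for Irf5 was a log2 fold change of -0.62 (standard error 0.26, adjusted p = 0.328 in edgeR), and without wt replicate 1 it was -0.33 (standard error 0.20). Tnpo3, a gene on the opposite strand, shares 411 exon bases with Irf5, or 14.1% of the exon bases of Irf5. Its log2 fold change was 0.31, opposite in sign to that of Irf5, and the sources used here do not say if reads were counted by strand. Irf8 (NCBI Gene 15900, chromosome 8 from 120736358 to 120756694, plus strand) had 171, 104 and 134 CPM in the wt libraries and 91.2, 115 and 106 in the libraries labelled ko. The groups overlapped here too, since wt replicate 2 was below replicates 2 and 3 labelled ko. Irf8 had a log2 fold change of -0.39 (standard error 0.19, adjusted p = 0.343 in edgeR), and of -0.20 without wt replicate 1.

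Irf4 was also set against Irf5 and Irf8 within each library. Because the estimate of Irf4 has the opposite sign, these ratios differ between the groups by more than any of the 3 genes alone, by arithmetic. The ratio of Irf4 to Irf5 in FPKM was 0.103, 0.138 and 0.150 in the wt libraries and 0.259, 0.581 and 0.187 in the libraries labelled ko, 2.36-fold higher. The ratio of Irf4 to Irf8, the members that bind DNA with PU.1, was 0.145, 0.191 and 0.163 in the wt libraries and 0.320, 0.447 and 0.254 in the libraries labelled ko, 2.00-fold higher. Neither ratio overlapped between the groups, and the same exact permutation test gave p = 0.1 for each. Over the 4 ratios the p-values adjusted by the Benjamini-Hochberg method were 0.133 for the 3 ratios that did not overlap and 0.3 for Irf7 to Irf3. Without replicate 2 labelled ko the log2 difference was 0.77 in place of 1.24 for Irf4 to Irf5 and 0.78 in place of 1.00 for Irf4 to Irf8.

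**Figure D2:**
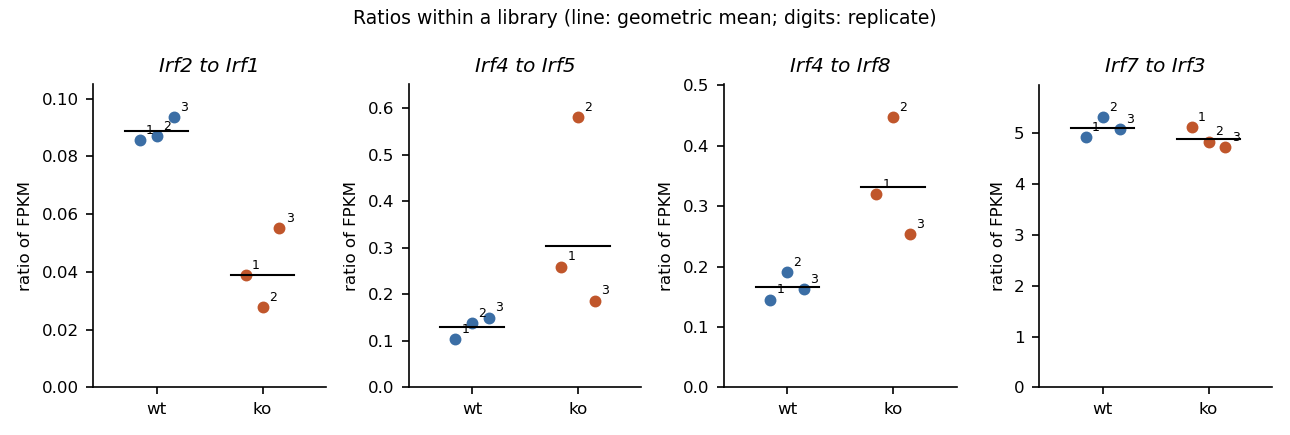
Ratio of FPKM of a pair of IRF genes within each library, on linear axes from 0, with the geometric mean of each group as a line and the replicate number beside each point. The ratio of Irf2 to Irf1 lies between 0.0278 and 0.0552 in the libraries labelled ko against 0.0857 or more in the wt libraries, both ratios with Irf4 are higher in the libraries labelled ko, and the ratio of Irf7 to Irf3 stays between 4.73 and 5.32.

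Irf9, the DNA-binding subunit of ISGF3 (NCBI Gene 16391, chromosome 14 from 55603571 to 55610030, plus strand), had the smallest estimate. It had 108, 79.2 and 71.5 CPM in the wt libraries and 74.0, 76.2 and 66.7 in the libraries labelled ko. Wt replicate 1 alone stood above the rest, and without it the log2 fold change moved from -0.26 (standard error 0.17, adjusted p = 0.415 in edgeR) to -0.06 (standard error 0.12). Its partner Stat2 had a log2 fold change of -0.44 (standard error 0.21), and its groups overlapped. Rnf31, on the same strand as Irf9 and with a log2 fold change of -0.44, shares 123 exon bases with it, or 2.28% of the exon bases of Irf9.

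Over the family, 0 of the 8 members passed an adjusted p of 0.05 in edgeR, as did 0.0% of the 13884 genes tested. At an unadjusted p under 0.05 there were 6 members (Irf1, Irf2, Irf3, Irf4, Irf5 and Irf7) beside 15.2% of all genes tested, the 2 higher members beside 6.9% and the 4 lower members beside 8.31%. In 5 of the 8 members the groups did not overlap, which held for 25.9% of all genes tested. Of these, 2 were higher in the libraries labelled ko, against 13.3% of all genes, and 3 were lower, against 12.6%. The median absolute log2 fold change was 0.58 for the members and 0.31 for all genes tested, and the median log2 fold change was -0.47 and 0.02. The median of the members was -0.26 without wt replicate 1, -0.29 by limma on log2 of FPKM plus 1 and 0.08 when scaled to macrophage markers, where the median of all genes was 0.56. DESeq2, an alternative count test, called 0 members on the same 6 libraries and 0.263% of the genes with an adjusted p. A fit on 4 libraries left out wt replicate 1 and replicate 3 labelled ko, a choice made with earlier results of these data known. There DESeq2 called 4 members, Irf1, Irf2, Irf4 and Irf5, and 10.1% of all genes with an adjusted p. The 2 higher members stood beside 4.23% of these genes and the 2 lower members beside 5.91%. In contrast, edgeR called 0 members and 0.0% of all genes on these 4 libraries, with 6 members and 23.2% of all genes at an unadjusted p under 0.05. Leaving out 1 library, DESeq2 called Irf2 without replicate 3 labelled ko, beside 3.56% of all genes, and Irf7 without wt replicate 3, beside 3.74%.

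The summed level of the 8 members overlapped between the groups, whereas the shares of Irf1, Irf3, Irf4 and Irf7 in it did not. These 4 members already lay apart by CPM in the same directions, and shares of the same sum depend on each other. The shares are thus a description and no further result about each gene. Summed FPKM was 349.6, 264 and 263 in the wt libraries and 297, 324 and 274 in the libraries labelled ko. Irf1 made up 23.8%, 30.1% and 25.2% of this sum in the wt libraries and 41.4%, 43.4% and 39.5% in the libraries labelled ko. Irf7, close to Irf1 in the wt libraries at 24.5% to 24.9%, made up 15.9% to 19.5% in the libraries labelled ko. Irf3 made up 4.67% to 4.98% and 3.29% to 3.81%. Irf4 made up 1.93% to 2.39% in the wt libraries and 2.78% to 5.29% in the libraries labelled ko. These shares rest on the gene lengths in the FPKM values. With the longest coding transcripts, a choice made after the data were examined, Irf7 made up 12.8% to 13.3% in the wt libraries, well below Irf1 at 22.6% to 29.3%, and 9.0% to 10.8% in the libraries labelled ko. The shares of these 4 members still did not overlap between the groups, and that of Irf5 did not either, at 30.5% to 37.9% and 20.2% to 29.98%.

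In order of mean FPKM, the wt libraries had Irf1 (76.4 ± 9.0, SD, n = 3), Irf7 (72.0 ± 11.9), Irf5 (48.7 ± 14.5), Irf8 (37.7 ± 9.14), Irf9 (30.4 ± 6.24), Irf3 (14.2 ± 2.82), Irf2 (6.76 ± 0.493) and Irf4 (6.12 ± 0.696). Neighbours from Irf1 to Irf9 overlapped in their ranges, as did Irf2 and Irf4, while Irf9, Irf3 and Irf2 were set apart from each other. In the libraries labelled ko, Irf1 (124 ± 16.3, SD, n = 3) stood apart from Irf7 (52.3 ± 5.36) and Irf7 from Irf5 (34.9 ± 5.64), and Irf4 (11.2 ± 5.17) ranked above Irf3 (10.7 ± 0.656) and Irf2 (4.88 ± 1.03). In this group the ranges of Irf5 and Irf8 overlapped, as did those of Irf8 and Irf9 and of Irf4 and Irf3, while Irf9 stood apart from Irf4 and Irf3 from Irf2. This order depends on the gene length that is used. The FPKM values rest on 12519 bases for Irf2 and 7512 for Irf5, where the longest coding transcripts of these genes in GENCODE have 2497 and 2241. With the latter lengths, chosen after the data were examined, Irf5 came first in the wt libraries at 163 ± 48.6 on the same scale (SD, n = 3) and Irf1 second at 120.01 ± 14.1, and in the libraries labelled ko Irf1 was first at 195 ± 25.6 and Irf5 second at 117 ± 18.9. Irf4 was the lowest in both groups with these lengths. Comparisons of 1 gene between libraries do not depend on the length.

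**Figure D3:**
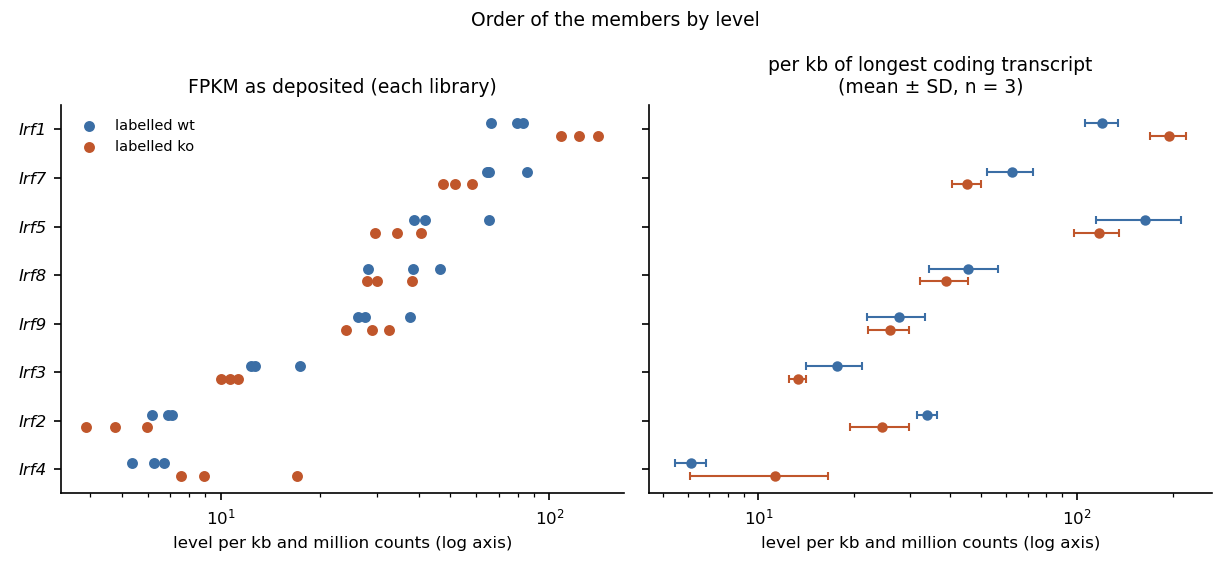
Levels of the 8 IRF genes per gene length and library total on log axes, at left as 1 point per library for the deposited FPKM and at right as mean and SD of 3 libraries per group with the length of the longest coding transcript. Irf1 leads in the libraries labelled ko in both panels, while the place of Irf5 and Irf2 depends on the length.

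Macrophage markers were set beside the family, because several IRF genes are macrophage genes. All 12 macrophage markers had lower estimates in the libraries labelled ko (median log2 fold change -0.54). The groups did not overlap for 9 of them, beside 12.6% of all genes tested. The markers summed to 8444, 7768 and 7657 CPM in the wt libraries and 5444, 4456 and 7056 in the libraries labelled ko. In bulk RNA, fewer macrophages and less of this RNA per macrophage cannot be told apart. Per 1000 CPM of these markers, Irf1 was at 35.5, 36.9 and 29.5 CPM in the wt libraries and at 72.3, 92.5 and 53.1 in the libraries labelled ko. Irf4 was at 4.10, 3.54 and 3.99 in the wt libraries and at 7.47, 16.1 and 5.33 in the libraries labelled ko. Since the sum of the markers was lower in each library labelled ko, genes that were higher there by TMM stay apart on this scale by arithmetic. Irf2, Irf3 and Irf7, lower without overlap by TMM, overlapped between the groups on this scale. In wt libraries and those labelled ko, Irf2 averaged 11.2 ± 0.839 and 10.3 ± 0.677 (SD, n = 3). Irf3 averaged 4.73 ± 0.751 and 4.67 ± 0.842, and Irf7 18.4 ± 2.35 and 17.5 ± 3.56. Irf5, lower by TMM, was at 48.1 ± 12.3 (SD, n = 3) and 44.4 ± 0.928 (SD, n = 3).

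In an edgeR fit scaled to the sum of these markers, which was added after the data were examined, the median log2 fold change of all genes moved to 0.56 and 91.3% of the genes tested had an estimate above 0. There the log2 fold change was 1.10 (standard error 0.21) for Irf1 and 1.31 (standard error 0.37) for Irf4, both above that median, with an adjusted p of 0.109 for each. The other 6 members lay between -0.12 and 0.31, all below the median, with Irf8 and Irf9 changing sign to 0.17 and 0.31. At an unadjusted p under 0.05 this fit had 2 members, Irf1 and Irf4, and 36.4% of all genes tested. Irf1 ranked 10 by p-value among all genes in this fit and 151 in the fit with TMM scaling. Irf7, lower by TMM, ranked 12762 in this fit and 140 with TMM scaling. Because this scaling moves the estimates upward, genes higher by TMM tend to gain in rank and lower ones to lose.

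**Figure D4:**
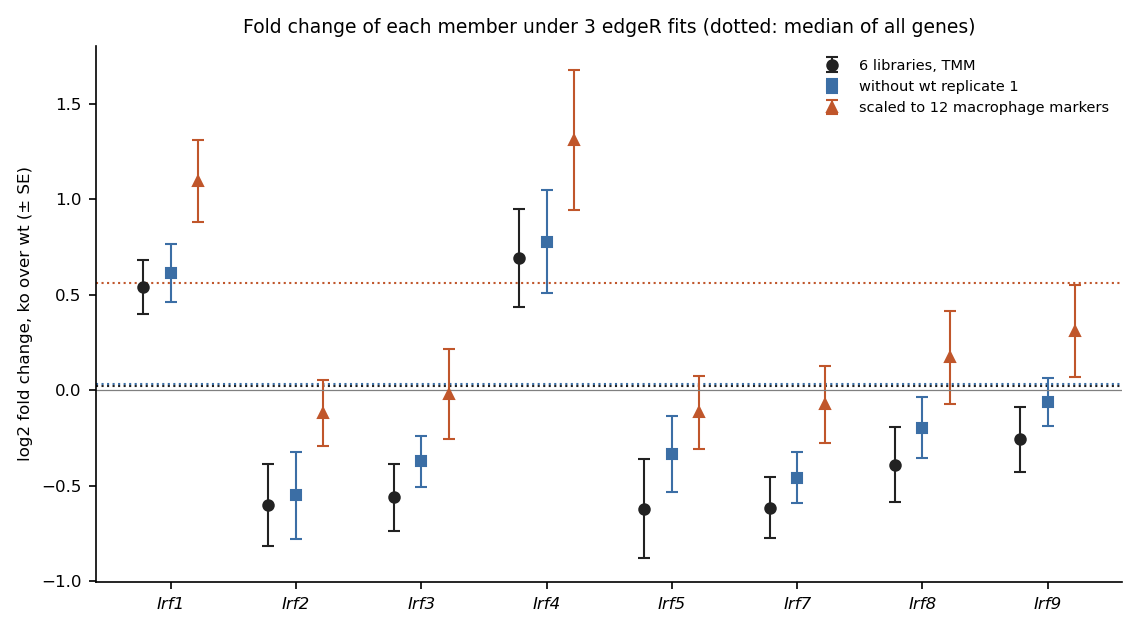
log2 fold change of each IRF gene, libraries labelled ko over wt, with standard error, in 3 edgeR fits, and the median of all genes tested in each fit as a dotted line in the same color. Irf1 and Irf4 lie above the median of all genes in each fit, at 0.54 and 0.69 with TMM scaling, and the other 6 members lie below it.

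Markers of other cell types were summed in the same way, and of the lists given next only the neutrophil list did not overlap between the groups. The fibroblast list summed to between 27.0 and 524 CPM in the wt libraries and between 381 and 756 in the libraries labelled ko, the neutrophil list to between 1698 and 1922 and between 734 and 1484, the NK cell list to between 46.6 and 83.4 and between 72.0 and 157, and the epithelial or carcinoma list to between 36.1 and 138 and between 129 and 192. The conventional dendritic cell list is of interest because these cells express Irf4 and Irf8. It summed to between 351 and 530.5 CPM in the wt libraries and between 429 and 556 in the libraries labelled ko. Xcr1 was at most 0.91 CPM and Clec9a at most 2.17, while Ccr7 ranged from 152 to 250 over the libraries. Of these 10 markers, 4 had higher and 6 lower estimates (median log2 fold change -0.03). The groups did not overlap for 1 marker, which was higher, beside 13.3% of all genes tested. The plasmacytoid dendritic cell list came to between 138 and 146 and between 134 and 142, with Siglech at most 0.72 and Bst2 between 57.1 and 69.5. The endothelial list came to between 35.3 and 47.6 and between 34.9 and 39.6. The part of these cells in the levels of the members was not tested.

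Upstream of IRF3, IRF5 and IRF7, the list of 21 sensors, adaptors and kinases had 18 lower and 3 higher estimates in the libraries labelled ko, with a median log2 fold change of -0.26. None passed the adjusted threshold in edgeR. At an unadjusted p under 0.05, 5 were lower and 0 were higher, beside 8.31% and 6.9% of all genes tested. Ticam2, the adaptor that couples TLR4 to TRIF, had the smallest p of the list, with 41.4, 27.4 and 33.0 CPM in the wt libraries and 19.1, 17.6 and 20.2 in the libraries labelled ko (log2 fold change -0.84, standard error 0.18). Tlr9, the endosomal DNA sensor, followed with 39.0, 59.0 and 31.1 against 24.3, 22.7 and 19.5 CPM (log2 fold change -0.96, standard error 0.24). The groups did not overlap for 6 genes of the list, all lower, beside 12.6% of all genes tested. Among them were Sting1, the adaptor of cytosolic DNA sensing (log2 fold change -0.58), and Irak4, the kinase that MyD88 recruits (-0.70). Tbk1, the kinase that phosphorylates IRF3, had an estimate of 0.18 with overlapping groups.

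Among the interferon ligands, 2 had enough counts to be tested. Ifnb1, the main target of IRF3 and IRF7, had 9.22, 28.1 and 16.1 CPM in the wt libraries and 27.1, 32.6 and 28.8 in the libraries labelled ko, where the lowest library labelled ko was just below wt replicate 2 (log2 fold change 0.73, standard error 0.36). Ifng, a product of T and NK cells that induces Irf1, had 1.10, 1.04 and 4.41 against 6.74, 19.2 and 3.58 CPM, again with overlap (log2 fold change 2.17, standard error 0.78). Ifna1, Ifna2, Ifna4, Ifna5 and Ifnk were too low to be tested.

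In the list of interferon receptors, JAK-STAT members and feedback genes, 12 of 15 estimates were lower, with a median of -0.41. At an unadjusted p under 0.05, 5 genes were lower, beside 8.31% of all genes tested. The median was -0.25 without wt replicate 1 and -0.23 without replicate 2 labelled ko. Usp18, an interferon-induced brake on the receptor, had 27.2, 18.5 and 24.0 CPM in the wt libraries and 13.3, 11.7 and 14.2 in the libraries labelled ko (log2 fold change -0.83, standard error 0.18). In this list 2 genes were higher and 7 lower without overlap, beside 13.3% and 12.6% of all genes tested. Jak2 was among the higher (log2 fold change 0.30).

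The target genes of ISGF3 and of IRF1 were lower by estimate while Irf1 itself was higher by estimate. Of 18 tested ISGF3 targets, 17 had lower estimates (median log2 fold change -0.38). Lower at an unadjusted p under 0.05 were 9, beside 8.31% of all genes tested, and lower without overlap 9, beside 12.6%. Oasl2, of the oligoadenylate synthetase family, had 84.3, 78.7 and 85.3 CPM in the wt libraries and 62.4, 46.1 and 50.2 in the libraries labelled ko (log2 fold change -0.65, standard error 0.14). Oasl1, a feedback inhibitor of Irf7 translation, was the exception, with an estimate of 0.33 and overlapping groups. Of the 20 targets of IRF1 and interferon-gamma, 18 had lower estimates (median log2 fold change -0.39). Against the same shares of all genes, 8 were lower at an unadjusted p under 0.05 and 8 lower without overlap. Gbp2, a guanylate-binding protein, had 217, 277 and 177 CPM in the wt libraries and 149, 114 and 158 in the libraries labelled ko (log2 fold change -0.67, standard error 0.20). Tap1, a subunit of the peptide transporter for MHC class I, had a log2 fold change of -0.41 (standard error 0.12). The 2 targets with higher estimates were Cd274, which encodes PD-L1, at 0.24 and Socs1 at 0.53, both with overlap.

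Of the 11 DNA-binding partners of IRF4 and IRF8, 9 had lower estimates (median log2 fold change -0.32). At an unadjusted p under 0.05 there were 2 of them, both lower, beside 8.31% of all genes tested. The groups did not overlap for 2, also lower, beside 12.6%. Spi1, which encodes PU.1, had 441, 302 and 280.2 CPM in the wt libraries and 206, 158 and 246 in the libraries labelled ko, without overlap (log2 fold change -0.75, standard error 0.23). Batf2 had a log2 fold change of -1.04 (standard error 0.31). Of the 10 M2 genes linked to IRF4, 8 had lower estimates (median -0.34), while Irf4 was higher by estimate. In this list 4 were lower at an unadjusted p under 0.05 and 3 lower without overlap, beside 8.31% and 12.6% of all genes tested. Stat6 (-0.53) and Kdm6b (-0.40) had the smallest p-values and groups that did not overlap. Arg1 (-0.17), Ccl17 (-0.09) and Ccl22 (0.05) had groups that overlapped. Of the 7 cytokines linked to IRF5, 3 had higher and 4 lower estimates. Their median of -0.27 depended on single libraries, at -0.51 without wt replicate 1, 0.12 without wt replicate 2, -0.04 without replicate 2 labelled ko and -0.63 without replicate 3 labelled ko. The 2 with the smallest p-values were higher without overlap, beside 13.3% of all genes tested. Tnf had 393, 541 and 393 CPM in the wt libraries and 705, 711 and 770.04 in the libraries labelled ko (log2 fold change 0.72, standard error 0.16), and Il12b had a log2 fold change of 0.61 (standard error 0.24). The adjusted p of each gene named in these lists was at least 0.328 in edgeR. Scaled to the macrophage markers, the medians of the ISGF3 list and the IRF1 list were 0.17 and 0.15, both below the median of all genes in that fit.

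**Figure D5:**
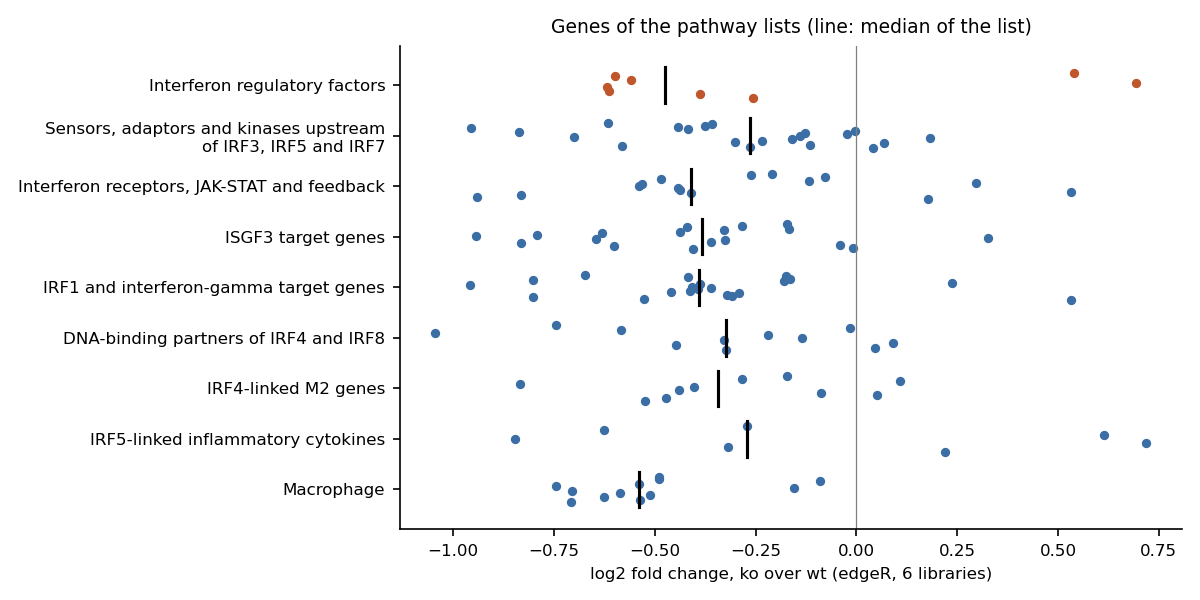
log2 fold change, libraries labelled ko over wt, of each tested gene in 9 lists around the IRF family from edgeR on 6 libraries, with the median of each list as a line. The IRF genes split into 2 at 0.54 and 0.69 and 6 below 0, and the medians of the other lists lie between -0.54 and -0.26.

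Outside the 8 members, Irf2bp2, a corepressor that binds IRF2, had 534, 355 and 366 CPM in the wt libraries and 267, 225 and 341 in the libraries labelled ko, without overlap (log2 fold change -0.59, standard error 0.22), as Irf2 did. Of all genes tested, 12.6% were lower without overlap. For Irf2bp1 the log2 fold change was -0.35 and for Irf2bpl 0.10.

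For each member, the 2 genes with the most similar pattern over the 6 libraries were found by the root mean square difference of centred log2 CPM. Tor3a was near both Irf3 (0.0418) and Irf7 (0.0453), and Zbp1, an interferon-induced sensor of Z-form nucleic acids, was next for Irf7 (0.0489), while Rnpepl1 was nearest to Irf3 (0.0254). Irf2 was nearest to Ltb4r1, the leukotriene B4 receptor (0.0456), and to Aqp9 (0.0565). Irf5 was nearest to Smpdl3a (0.0420) and Arhgef10l (0.0422), and Irf8 to Ripor2 (0.0541) and Stat5b (0.0547). Irf9 had Rad9a (0.0308) and Triap1 (0.0335). The members that were higher had less close neighbours, Irf1 with Tamalin (0.0656) and Matcap1 (0.0725) and Irf4 with Csrnp2 (0.0672) and Mex3b (0.101). With 13884 genes and 6 libraries, close patterns are common, and these are given as a description.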

How the data were processed

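RNA sequencing of 6 libraries, 3 per group, was used, and groups were taken from the sample titles. The submitters' processing notes name the build mm10. The aligner, counting tool and annotation are not given in the sources used here. The files deposited by the authors hold raw whole-number counts for each gene and FPKM values, and the latter equal the count over a fixed gene length and the library total. Counts were tested with edgeR 4.0.16 in R 4.3.3 (filterByExpr, TMM scaling, glmQLFit and glmQLFTest, Benjamini-Hochberg over 13884 genes, threshold 0.05). A prior count of 2 was used for log2 CPM, and a standard error is the size of the log2 fold change over the square root of F. Alternatives used DESeq2 1.42.0, and limma 3.58.1 on log2 of FPKM plus 1 or 0.1. The fits were tested on simulated data. Single values were compared by exact permutation. Gene coordinates are from GENCODE M21 and promoters from RefSeq, both of GRCm38, and 3 renamed genes were matched by NCBI Gene number. The genes named by rule were the 8 members, the 2 genes of smallest p in each pathway list and the 2 nearest in pattern to each member. Some of these are not reported here. Other genes were named after their values were seen. Cell lists covered macrophages, dendritic cells, T, NK, B and plasma cells, neutrophils, fibroblasts, epithelium and endothelium. Members and lists were chosen with earlier results of these data known, as were the 4 libraries of the smaller fits, which an earlier reading of a heatmap in the study had matched to it. That match was not repeated here. No libraries of a group were duplicates, the chi-square value per gene being at least 33.6.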

Additional observations from a re-analysis of the deposited data

How the results depend on the processing

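The direction of each of the 8 members was kept in 22 alternatives (RLE and upper quartile scaling, 2 filters on low counts, DESeq2, limma on FPKM with 2 pseudocounts, the replicate block and libraries left out). Scaling to the macrophage list, added after the data were examined, turned Irf8 to 0.17 and Irf9 to 0.31, since it moves all genes upward by construction. In edgeR and limma 0 genes were called in each alternative, with 0 members. DESeq2 on 6 libraries called 36 genes and 0 members. On the 4 libraries without wt replicate 1 and ko replicate 3 it called 1266 genes and 4 members, Irf1 (log2 fold change 0.61), Irf2 (-0.83), Irf4 (0.91) and Irf5 (-0.57), and the cause was not tested. With 1 library left out, DESeq2 called 1 gene (ko replicate 1), 4 (ko replicate 2), 71 (wt replicate 1), 361 (wt replicate 2), 435 (ko replicate 3) or 488 (wt replicate 3), and edgeR 0. The number of members called was 0 or 1, namely Irf7 without wt replicate 3 and Irf2 without ko replicate 3, both in DESeq2. The log2 fold changes with libraries left out, in edgeR and DESeq2, ranged from 0.39 to 0.65 for Irf1, -0.87 to -0.42 for Irf2, -0.69 to -0.37 for Irf3, 0.32 to 0.94 for Irf4, -0.84 to -0.33 for Irf5, -0.74 to -0.45 for Irf7, -0.57 to -0.20 for Irf8 and -0.41 to -0.01 for Irf9. Leaving out wt replicate 1 lowered the size of the estimates of Irf3, Irf5, Irf8 and Irf9 by more than 1.5 times, and leaving out ko replicate 2 did so for Irf4. The ratios, as differences of log2 values, ranged from -1.43 to -0.94 for Irf2 to Irf1, 0.77 to 1.59 for Irf4 to Irf5, 0.78 to 1.19 for Irf4 to Irf8 and -0.10 to -0.03 for Irf7 to Irf3. By limma on log2 of FPKM plus 1 the medians of the pathway lists were closer to 0, between -0.24 and -0.04.

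Libraries with the same replicate number did not deviate together, the correlations being -0.241, 0.0605 and -0.337. In the fit with a replicate block, 0 genes and 0 members were called in edgeR, with 5 members and 11.6% of all genes at an unadjusted p under 0.05, and the log2 fold changes of Irf1 and Irf4 were 0.55 and 0.63. For the ratios the block leaves the difference as it is by construction, and 3 pairs allow no p below 0.25.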
